A study of Rattus norvegicus with 3 samples.

Results

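Cyclic nucleotide signalling genes were taken here as all genes in the 2 deposited peak lists whose symbol begins with Adcy, Pde, Prkac, Prkar, Prkg, Gucy1, Gucy2 or Akap (followed, where the family is numbered, by its number) or is Mrvi1. The rule found 51 genes of 14740 with any peak, and 150 peaks of 35044, of which 42 of 9523 were called in Myocd-LSD1 and 108 of 25521 in Control. Both groups were rat aortic smooth muscle cell (SMC) lines that received an adenovirus for HA-tagged TET2 (Adv-HA-TET2) for 24 h. The peaks below were thus called for the introduced protein. No sample without it was included, so signal that arises without the tag was not measured. One line is named Myocd-LSD1, after myocardin, a coactivator of the smooth muscle programme, and LSD1, a histone H3 lysine 4 demethylase, and gave 1 sample. The other, here called Control, is labelled WT and titled Ctrl SMC, and gave 2 samples that name the same peak list. The labels do not say how the Myocd-LSD1 line was made or whether it is 1 clone. HA-TET2 was located by CUT&Tag on 500000 cells per assay, a method in which an antibody against the HA tag holds a transposase that cuts and tags the DNA nearby.

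Cyclic AMP and cyclic GMP are made by adenylyl and guanylyl cyclases and broken down by phosphodiesterases (PDEs). Cyclic AMP acts mainly through protein kinase A (PKA), whose catalytic subunits are released from regulatory subunits when these bind the nucleotide, and A-kinase anchoring proteins (AKAPs) hold PKA at particular places in the cell. Cyclic GMP acts through the cGMP kinases, and in vascular smooth muscle both pathways favour relaxation. TET2 oxidises 5-methylcytosine, which in mammalian DNA sits mainly at CG dinucleotides.

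Each group is represented by 1 peak list, so there is no replicate error behind any value and the groups were not compared by a test. A peak is called overlapping where it shares at least 1 bp with a peak of the other list. Ranges in brackets are 95% Clopper-Pearson (exact binomial) intervals. They take in the counting error alone, and peaks of 1 gene share their source. The fold is the authors' enrichment, described within its own list, and the fragments are the overlapping fragments at the summit, recovered from the deposited fold and p-value. Depth could be read only from the peaks: the uniform background under them was 0.0633 fragments in Myocd-LSD1 and 0.175 in Control, a Control to Myocd-LSD1 ratio of 2.77. The part of this difference in the counts below was not tested. Peaks do not measure expression, so the lists cannot check the labelled cell type as RNA would. Of the smooth muscle markers chosen, 0 of 8 had a Myocd-LSD1 peak and 5 a Control peak. Endothelial markers had peaks at 1 and 7 of 8, fibroblast markers at 1 and 4 of 7, and macrophage markers at 1 and 4 of 7. Of the 5 smooth muscle markers with a Control peak, 0 also had a Myocd-LSD1 peak (0 to 52.2). That interval includes the 46.2% of all genes with a Control peak, as do those of the other marker lists.

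The promoters of 5 members are printed here because HA-TET2 peaks lay at their start sites in 3 different ways. At Prkaca, the main catalytic subunit of PKA, and Akap11, an anchoring protein, both lists had a peak there. At Prkar1a, a PKA regulatory subunit, and Akap17a, an anchoring protein related to splicing factors, only the Myocd-LSD1 list had one, and at Gucy1b3, the β1 subunit of soluble guanylyl cyclase (Gucy1b1 in RefSeq), only the Control list. The windows run from 250 bases before to 50 after the start in RefSeq's GRCr8 table, 5′ to 3′ on the gene's strand. The peaks were called on rn6, so a window was matched by gene name and not by coordinates. Capitals mark CG dinucleotides.
Prkaca: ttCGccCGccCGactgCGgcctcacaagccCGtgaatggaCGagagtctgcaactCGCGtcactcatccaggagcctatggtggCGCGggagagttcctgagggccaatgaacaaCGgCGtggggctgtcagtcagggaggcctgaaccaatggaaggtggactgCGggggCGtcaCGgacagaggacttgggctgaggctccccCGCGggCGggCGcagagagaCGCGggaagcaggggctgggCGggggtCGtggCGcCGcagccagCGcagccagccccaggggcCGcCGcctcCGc
Akap11: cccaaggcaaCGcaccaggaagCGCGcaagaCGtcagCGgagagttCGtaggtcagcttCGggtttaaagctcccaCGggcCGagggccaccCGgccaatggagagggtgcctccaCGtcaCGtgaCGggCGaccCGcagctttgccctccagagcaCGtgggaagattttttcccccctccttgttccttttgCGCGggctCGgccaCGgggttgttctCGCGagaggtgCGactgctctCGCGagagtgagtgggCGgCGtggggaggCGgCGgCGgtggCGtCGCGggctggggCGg
Prkar1a: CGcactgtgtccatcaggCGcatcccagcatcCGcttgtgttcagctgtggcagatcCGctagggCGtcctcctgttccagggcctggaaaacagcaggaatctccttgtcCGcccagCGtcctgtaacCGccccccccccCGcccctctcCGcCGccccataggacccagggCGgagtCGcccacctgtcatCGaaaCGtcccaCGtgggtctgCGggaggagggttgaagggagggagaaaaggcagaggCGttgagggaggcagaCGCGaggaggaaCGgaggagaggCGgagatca
Akap17a: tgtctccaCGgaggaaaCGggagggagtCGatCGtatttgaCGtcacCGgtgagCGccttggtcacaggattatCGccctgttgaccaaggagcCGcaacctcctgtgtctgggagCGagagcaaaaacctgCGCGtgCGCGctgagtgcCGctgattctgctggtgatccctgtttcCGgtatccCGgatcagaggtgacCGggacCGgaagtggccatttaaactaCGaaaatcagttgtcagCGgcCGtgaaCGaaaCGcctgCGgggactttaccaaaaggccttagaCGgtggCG
Gucy1b3: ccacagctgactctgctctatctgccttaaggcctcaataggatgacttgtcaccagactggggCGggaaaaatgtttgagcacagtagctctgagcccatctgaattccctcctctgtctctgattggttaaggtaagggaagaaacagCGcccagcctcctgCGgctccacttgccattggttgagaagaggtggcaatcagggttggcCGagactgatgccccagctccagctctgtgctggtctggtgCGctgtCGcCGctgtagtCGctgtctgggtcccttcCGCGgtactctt
The Prkaca window lies at GRCr8 chr19:41083140-41083439, on the minus strand, and the Akap11 window at chr15:60365286-60365585, on the minus strand. The Prkar1a window lies at chr10:95120287-95120586, on the plus strand, the Akap17a window at chr12:21428198-21428497, on the minus strand, and the Gucy1b3 window at chr2:169696938-169697237, on the minus strand. They hold 29, 34, 22, 27 and 10 CG dinucleotides in the order printed. Gucy1b3 thus had the fewest of the 5. Over the 57 windows that the table holds for 42 members the median was 18 (interquartile range 7 to 29), and over all 33469 windows of the same length it was 7 (3 to 19). The cAMP response element TGACGTCA, the site of CREB family factors, was searched on both strands. It was found at Akap17a, the only one of the 57 member windows to hold it (1.75%), and in 1.83% of all windows. The shorter TGACG, which TGACGTCA contains, was found in 15 member windows (26.3%) and 21.2% of all, among them Prkaca, Akap11 and Akap17a.

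Over all members, peak numbers in the groups stood in nearly the same ratio as over all peaks, and a minority of sites was shared. The ratio of Myocd-LSD1 to Control peaks was 0.389 at the members and 0.373 over all peaks. Of the 45 member genes with a Control peak, 24 also had a Myocd-LSD1 peak (53.3%, 37.9 to 68.3), against 46.2% of all such genes. Of the 30 with a Myocd-LSD1 peak, the same 24 had a Control peak (80.0%, 61.4 to 92.3), against 81.2% of all such genes. Both shares of the members have intervals that include the share of all genes. The other members were 21 genes with Control peaks alone and 6 with Myocd-LSD1 peaks alone, namely Adcy10, Akap10, Akap17a, Pde11a, Pde7a and Prkar1a. These classes are by assigned gene, and some peaks inside these genes were assigned elsewhere.

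At the level of sites, 18 of the 42 Myocd-LSD1 peaks overlapped a Control peak (42.9%, 27.7 to 59.0), against 59.4% of all Myocd-LSD1 peaks, and 18 of the 108 Control peaks overlapped a Myocd-LSD1 peak (16.7%, 10.2 to 25.1), against 22.0% of all Control peaks. The first share lies below that of all peaks by slightly more than its counting interval, which ends at 59.0, and the second does not. Under several other settings, given in the closing sections, the first interval included the share of all peaks. The 18 pairs belonged to 16 of the 45 genes with a Control peak (35.6%, 21.9 to 51.2), against 36.0% of all such genes, and both peaks of every pair were assigned to the same gene. In another 8 genes, Adcy2, Adcy8, Akap6, Mrvi1, Pde4d, Pde5a, Pde7b and Prkg1, the lists had peaks at different sites, from 1889 bp apart at Pde4d to 216286 bp apart at Adcy8.

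**Figure D1:**
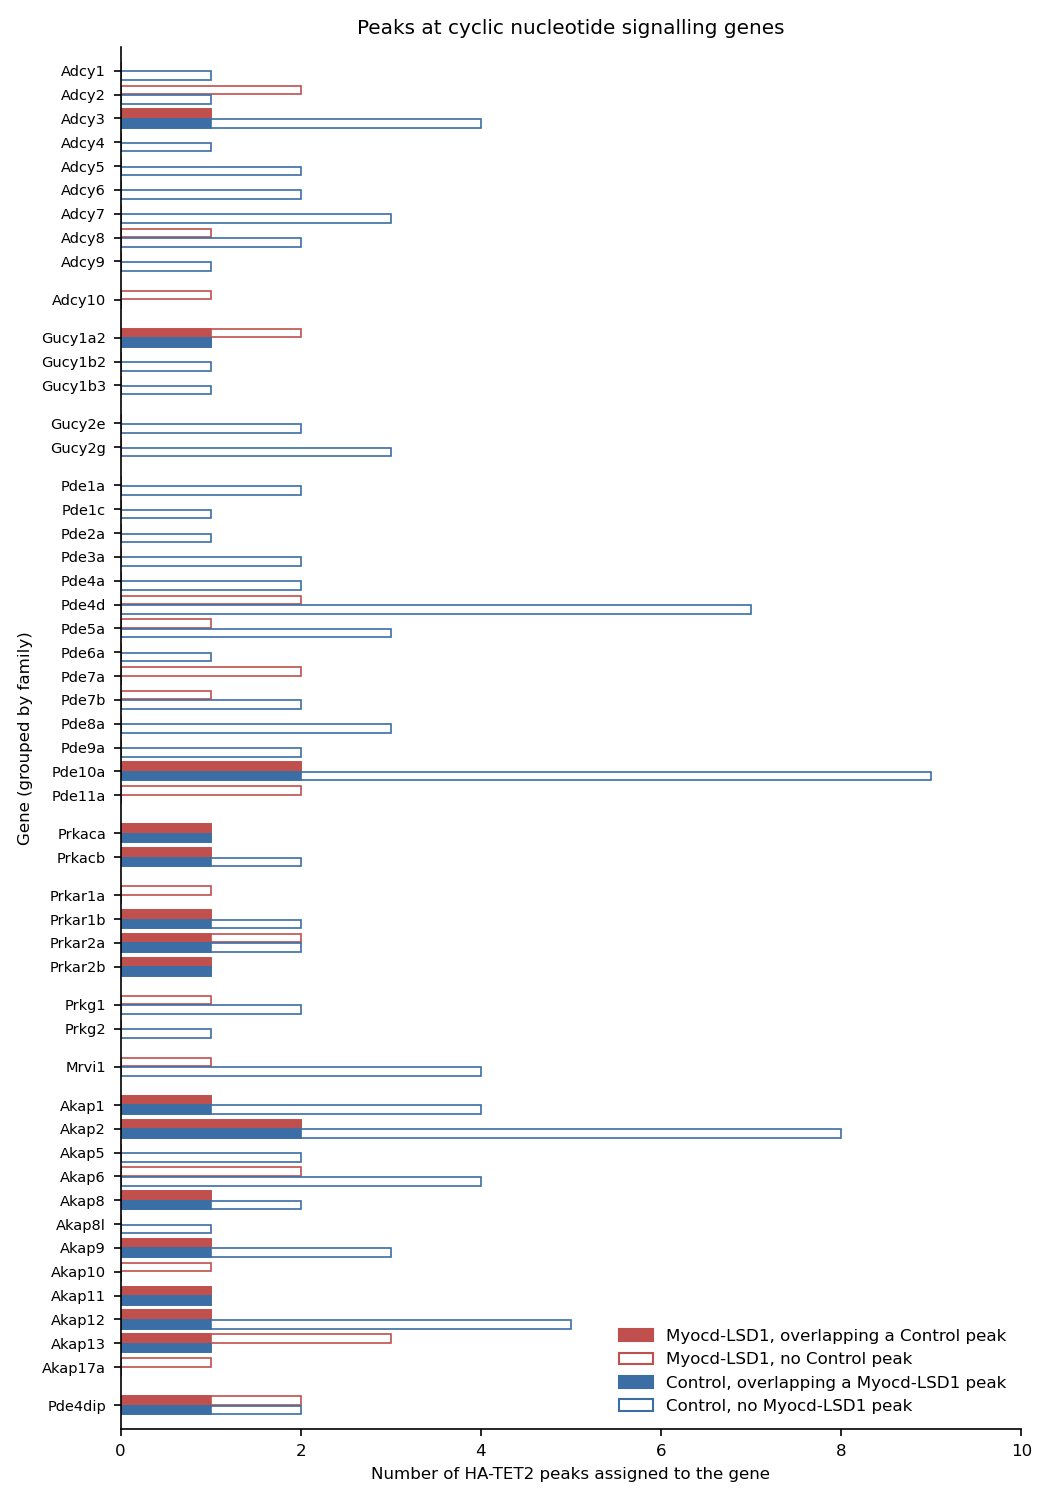
HA-TET2 peaks assigned to each of the 51 genes, in families from the cyclases at the top to the anchoring proteins; the upper bar of a gene is Myocd-LSD1 and the lower bar Control, and the filled part of a bar counts peaks that overlap a peak of the other list. Filled parts stand at all but 1 of the 6 PKA subunit genes and at 7 of the 12 anchoring protein genes, but at 1 of the 14 phosphodiesterase genes.

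The weakest calls of the Myocd-LSD1 list weighed on this share. Of the 42 member peaks in that list, 12 rested on 2 fragments (fold 2.81 to 2.82), as did 1672 of all 9523 peaks. Of these 12 member peaks, 0 overlapped a Control peak (0 to 26.5), against 9.57% of all Myocd-LSD1 peaks with 2 fragments. Of the 30 with more fragments, 18 did (60.0%, 40.6 to 77.3), against 70.0% of all Myocd-LSD1 peaks with more than 2 fragments. For 6 genes, Adcy10, Akap10, Akap6, Pde11a, Pde5a and Pde7b, every Myocd-LSD1 peak had 2 fragments. Among Myocd-LSD1 member peaks with 6 to 10 fragments, 12 of 13 overlapped a Control peak (92.3%, 64.0 to 99.8), against 82.0% of all such peaks, and with 4 to 5 fragments 4 of 12 did (33.3%, 9.92 to 65.1), against 60.4%. In Control, 7 of 44 member peaks with 6 to 10 fragments overlapped (15.9%, 6.64 to 30.1; all peaks 18.8%), 7 of 22 with 11 to 20 (31.8%, 13.9 to 54.9; all peaks 35.4%) and 3 of 5 with 21 or more (60.0%, 14.7 to 94.7; all peaks 53.3%). In both lists the overlapping member peaks had the higher median fold, 5.70 against 3.20 for the others in Myocd-LSD1 and 7.30 against 4.94 in Control. Over all peaks the medians differed the same way, 5.54 against 3.63 in Myocd-LSD1 and 6.69 against 4.98 in Control.

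**Figure D2:**
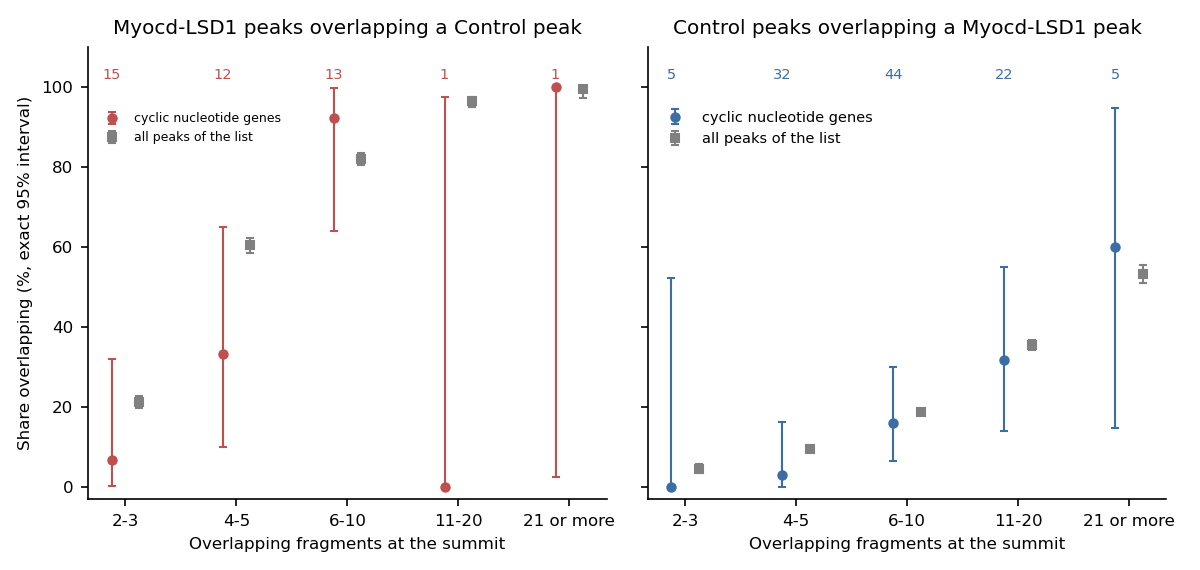
Share of peaks that overlap a peak of the other list (percent, with exact 95% intervals) by the number of overlapping fragments at the summit, for Myocd-LSD1 peaks on the left and Control peaks on the right; circles are the cyclic nucleotide genes, with their number of peaks above, and squares all peaks of the list. In both lists the share of all peaks increases with fragments, and the members' class furthest from all peaks is that of Myocd-LSD1 peaks with 11 to 20 fragments, at 0 on the single peak of Akap17a where all peaks reach 96.4%.

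Introns were the commonest place of the members' Control peaks and equal to promoters among their Myocd-LSD1 peaks. Introns outside promoters held 38.1% of the members' Myocd-LSD1 peaks and 50.9% of their Control peaks, against 23.7% and 29.8% of all peaks. Promoters, within 3 kb of a start site, held 16 of the 42 Myocd-LSD1 peaks (38.1%; all peaks 44.4%) and 18 of the 108 Control peaks (16.7%; all peaks 30.3%). Of the 16 promoter peaks in Myocd-LSD1, 6 overlapped a Control peak (37.5%, 15.2 to 64.6), against 69.0% of all promoter peaks in that list. Of the 18 in Control, 6 overlapped a Myocd-LSD1 peak (33.3%, 13.3 to 59.0), against 37.8% of all, and of the 90 Control peaks outside promoters 12 did (13.3%, 7.08 to 22.1), against 15.2% of all. Member promoters in Myocd-LSD1 therefore carried 10 peaks with no overlapping Control peak. Pde11a and Pde7a had 2 of these each, and Adcy8, Akap17a, Mrvi1, Pde4d, Pde4dip and Prkar1a had 1 each.

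**Figure D3:**
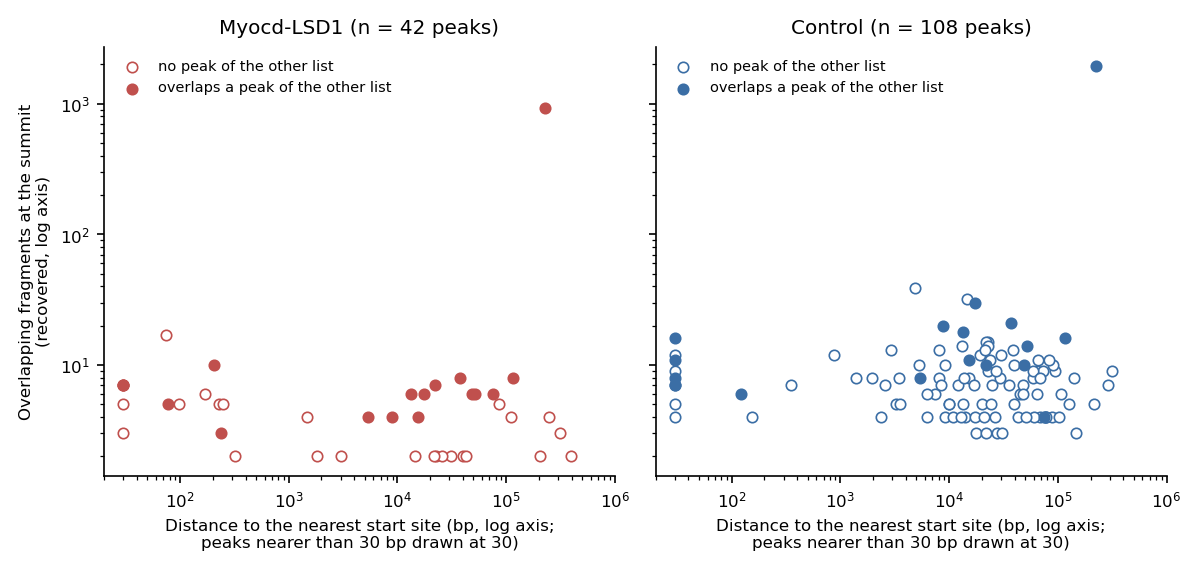
Overlapping fragments at the summit of each member peak (log axis) by its distance to the nearest start site (bp, log axis), for 42 Myocd-LSD1 peaks on the left and 108 Control peaks on the right; filled circles overlap a peak of the other list. The site upstream of Gucy1a2 stands apart in both lists with 935 and 1930 fragments, and the Myocd-LSD1 peaks with 2 fragments are all open.

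By role in the pathway, peaks of the cyclases and PDEs overlapped less often than all peaks beyond counting error. In Control this did not hold beside all peaks outside promoters. In Myocd-LSD1 the peaks of the cyclases and PDEs were weaker, with a median of 3 fragments beside 5 over all peaks. The PKA subunits and anchoring proteins did not stand apart by peaks but did by genes, with 1 shared bp counted as overlap. Among the genes that receive the signal through PKA, the 6 PKA subunits and 12 anchoring proteins, 13 of 21 Myocd-LSD1 peaks overlapped a Control peak (61.9%, 38.4 to 81.9) and 13 of 39 Control peaks a Myocd-LSD1 peak (33.3%, 19.1 to 50.2). Among the genes that make and break down the nucleotides, 15 cyclases and 14 PDEs, 4 of 17 Myocd-LSD1 peaks (23.5%, 6.81 to 49.9) and 4 of 60 Control peaks (6.67%, 1.85 to 16.2) did. Over all peaks the shares were 59.4% of Myocd-LSD1 and 22.0% of Control peaks. Both intervals of the PKA and anchoring genes include them, and both of the cyclases and PDEs lie below them. Over all peaks outside promoters the shares were 51.7% in Myocd-LSD1 and 15.2% in Control. The Control interval of the cyclases and PDEs includes the latter share, and their Myocd-LSD1 interval lies below the former. By genes, 12 of the 15 PKA subunit and anchoring genes with a Control peak had an overlapping pair (80.0%, 51.9 to 95.7), 3 of the 26 cyclase and PDE genes with one did (11.5%, 2.45 to 30.2), and 36.0% of all genes did, a share that lies below the first interval and above the second. For Control peaks the medians were 8 fragments (fold 5.50) at the PKA and anchoring genes and 7 (fold 4.74) at the cyclases and PDEs. Of these Control peaks, 8 of 39 and 7 of 60 lay in promoters. For Myocd-LSD1 peaks the medians were 5 fragments (fold 4.81) and 3 (fold 3.58). Of all Myocd-LSD1 peaks with 2 to 3 fragments, 21.3% overlapped a Control peak. The part of weak calls in the lower share of the cyclases and PDEs was not tested. With a reciprocal overlap of 50%, 13 of the 108 Control member peaks overlapped instead of 18. The pairs lost were those of Akap1, Akap8, Akap11, Prkaca and Prkacb, all PKA subunit or anchoring genes. Each was the only pair of its gene, so the share of PKA subunit and anchoring genes with a pair is lower at that setting. Its interval was not computed, so that these genes stand apart holds for 1 shared bp alone. This division was chosen after the counts by family had been seen, and the difference between the roles was not tested.

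**Figure D4:**
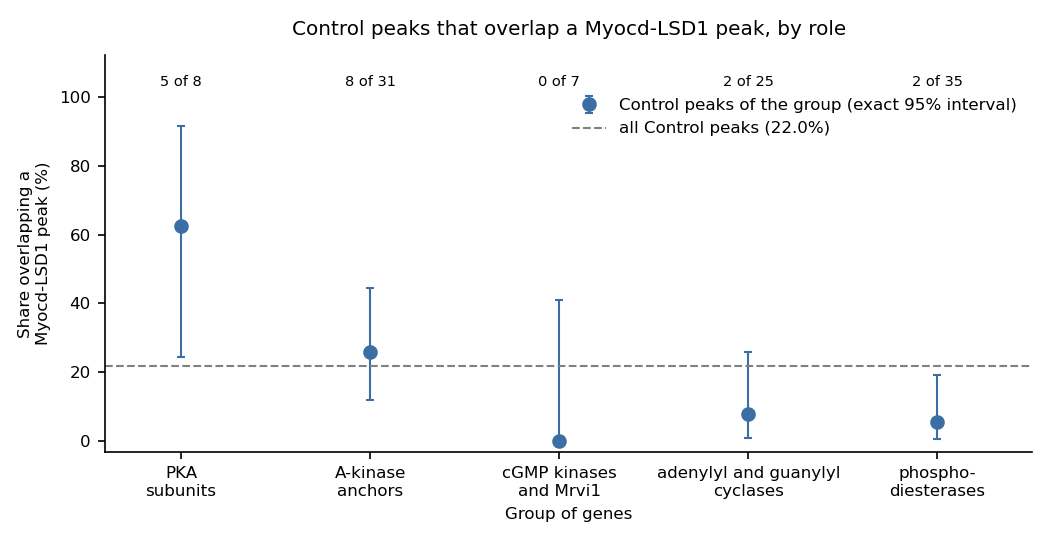
Share of Control peaks that overlap a Myocd-LSD1 peak (percent, exact 95% intervals) for 5 groups of genes by role; the counts stand above the points and the dashed line is the 22.0% of all Control peaks. PKA subunits have 5 of 8 and phosphodiesterases 2 of 35. Pde4dip is not in the plot.

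The membrane adenylyl cyclases, which make cAMP, had 1 shared site. All 9 of these genes (Adcy1 to Adcy9) had a Control peak, 17 peaks in all, and 3 had a Myocd-LSD1 peak, 4 in all. A single Control peak overlapped a Myocd-LSD1 peak (5.88%, 0.149 to 28.7), an interval that includes the 22.0% of all Control peaks. It lay in intron 2 of 21 of Adcy3, a widely expressed cyclase, with 8 fragments and fold 6.81 in Myocd-LSD1 (chr6:28608798-28609023) and 21 fragments and fold 7.79 in Control (chr6:28608688-28609044). The other 3 Control peaks of Adcy3 also lay in introns, 2 of them within 2 kb of this site on 13 and 10 fragments, and had no counterpart.

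The strongest Control peaks at a cyclase without a counterpart were those of Adcy6, one of the main cyclases of vascular smooth muscle. They lay in exon 4 of 22 (chr7:140274855-140275575, 32 fragments, fold 9.46) and exon 21 of 22 (chr7:140284672-140285490, 39 fragments, fold 9.40). The nearest Myocd-LSD1 peaks were 61114 and 66302 bp away. They were the only 2 of the 5 Control member peaks with more than 20 fragments that overlapped no Myocd-LSD1 peak. Exon peaks were seldom shared in general: 1 of 13 Control exon peaks of the members overlapped (7.69%), and 8.52% of all Control exon peaks.

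Adcy5, the close relative of Adcy6, had a Control peak 878 bp downstream of a start site (chr11:68840862-68841442, 12 fragments, fold 8.77) and one in intron 1 of 20 (15 fragments, fold 7.85), both without a counterpart. Adcy7 had 3 Control peaks, the strongest of which lay in exon 5 of 13 of the neighbouring gene Papd5 (chr19:19782049-19782529, 12 fragments, fold 8.30). Adcy8, a cyclase stimulated by calcium and calmodulin, had 1 Myocd-LSD1 peak across a start site on 3 fragments (fold 3.58), and 2 Control peaks elsewhere, the stronger of them intergenic (chr7:105280250-105280476, 9 fragments, fold 7.67). Adcy2 had 2 intergenic Myocd-LSD1 peaks on 3 and 2 fragments and 1 Control peak on 7. Thus Adcy2 and Adcy8 had peaks in both lists and none in the same place. Adcy1, Adcy4 and Adcy9 each had 1 Control peak, on 3, 10 and 8 fragments. Adcy10, the soluble adenylyl cyclase that responds to bicarbonate, had a single Myocd-LSD1 peak on 2 fragments.

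The guanylyl cyclases, which make cGMP, held the member site with the most fragments. It lay 226 kb upstream of Gucy1a2, the α2 subunit of the nitric oxide receptor, with 935 fragments and fold 11.2 in Myocd-LSD1 (chr8:181103-182295) and 1930 fragments and fold 10.5 in Control (chr8:181101-182295). Its local background was also high, 82.6 fragments in Myocd-LSD1 and 184 in Control, where the uniform backgrounds were 0.0633 and 0.175. The part of this background in the shared call was not tested. Of all peaks ordered by p-value it was number 3 in Myocd-LSD1 and number 2 in Control. The assignment to Gucy1a2 rests on distance alone. Gucy1a2 also had a Myocd-LSD1 peak 392 kb upstream, on 2 fragments.

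Gucy1b3, whose β1 subunit pairs with the α subunits, had 1 Control peak across its start site (chr2:181025710-181026207, 5 fragments, fold 4.96), at the promoter printed above. The nearest Myocd-LSD1 peak was 776083 bp away. Gucy1b2 had 1 Control peak, in intron 7 of 15 (chr15:45518128-45518347), on 3 fragments with a fold of 3.40. The membrane guanylyl cyclases Gucy2e and Gucy2g had 2 and 3 Control peaks, the strongest 2.9 kb upstream of a start site of Gucy2g (13 fragments, fold 6.44), and 0 Myocd-LSD1 peaks.

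The 14 PDE genes had the most Control peaks of any family, 35, and 10 in Myocd-LSD1. By assigned gene, both lists had peaks at Pde10a, Pde4d, Pde5a and Pde7b. Control alone had them at Pde1a, Pde1c, Pde2a, Pde3a, Pde4a, Pde6a, Pde8a and Pde9a, and Myocd-LSD1 alone at Pde7a and Pde11a. Counted by position, Pde11a also held 2 Control peaks, assigned to Ttc30a, and Pde2a held 1 Myocd-LSD1 peak, assigned to Mir139. Only 2 of the 35 Control peaks overlapped a Myocd-LSD1 peak (5.71%, 0.700 to 19.2), and both were at Pde10a. This interval lies below the 22.0% of all Control peaks and includes the 15.2% of those outside promoters; 3 of the 35 lay in promoters. Of the 10 Myocd-LSD1 peaks, the other 8 stood alone, 5 of them on 2 fragments.

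Pde10a, which breaks down both nucleotides, had 9 Control peaks, a number that 0.834% of genes with a Control peak reach. The overlapping sites lay in intron 1 of 21 (chr1:52530792-52531104 with 6 fragments and fold 5.43 in Myocd-LSD1, and chr1:52530659-52531110 with 18 and 8.65 in Control) and 22 kb upstream (chr1:52566508-52566724 with 7 fragments and fold 6.21 in Myocd-LSD1, and chr1:52566376-52566808 with 10 and 6.27 in Control). The other 7 Control peaks of Pde10a had 7 to 13 fragments. The strongest of them by fold, on 13 fragments, lay in the same intron 5003 bp from the nearest Myocd-LSD1 peak. The gene had 0 promoter peaks in either list.

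Pde4d, a cAMP-specific PDE with several start sites, had 7 Control peaks (2.25% of genes reach that number), 6 of them in introns. The strongest lay in intron 2 of 15 (chr2:41200598-41200827, 10 fragments, fold 7.98). In Myocd-LSD1 it had a peak 168 bp upstream of one of its start sites (chr2:41417889-41418183, 6 fragments, fold 5.10) and an intronic one on 2 fragments. A Control peak on 4 fragments lay 1889 bp from the Myocd-LSD1 promoter peak and none overlapped it. The start site nearest to the strongest Myocd-LSD1 peak of Pde4d thus differed from the one nearest to its strongest Control peak, which is 9.08 kb away from a start site further upstream.

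Pde7a, a cAMP-specific PDE, had 2 Myocd-LSD1 peaks, 230 bp downstream and 246 bp upstream of its start site, each on 5 fragments (fold 4.85), and 0 Control peaks. The nearest Control peak was 38170 bp from them. Pde5a, the cGMP-specific PDE that sildenafil inhibits, had a Control peak spanning its start site on 4 fragments and another in intron 7 of 20 on 8, while its 1 Myocd-LSD1 peak rested on 2. Pde3a, the PDE that cGMP inhibits, and Pde1a and Pde1c, which calcium and calmodulin activate, had Control peaks on 3 to 6 fragments and no Myocd-LSD1 peak. Those numbers are below the median of 7 of all Control peaks, and of all Control peaks with 4 to 5 fragments 9.46% overlapped a Myocd-LSD1 peak. Pde8a had 3 Control peaks (12, 8 and 4 fragments), Pde4a and Pde9a 2 each, and Pde2a and Pde6a 1 each. Pde4dip, which the rule's pattern includes although it encodes myomegalin, a scaffold protein and not a PDE, had an overlapping pair across its start site (7 fragments and fold 5.83 in Myocd-LSD1, 16 and 9.80 in Control; chr2:199945798-199946411 and chr2:199945820-199946407).

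**Figure D5:**
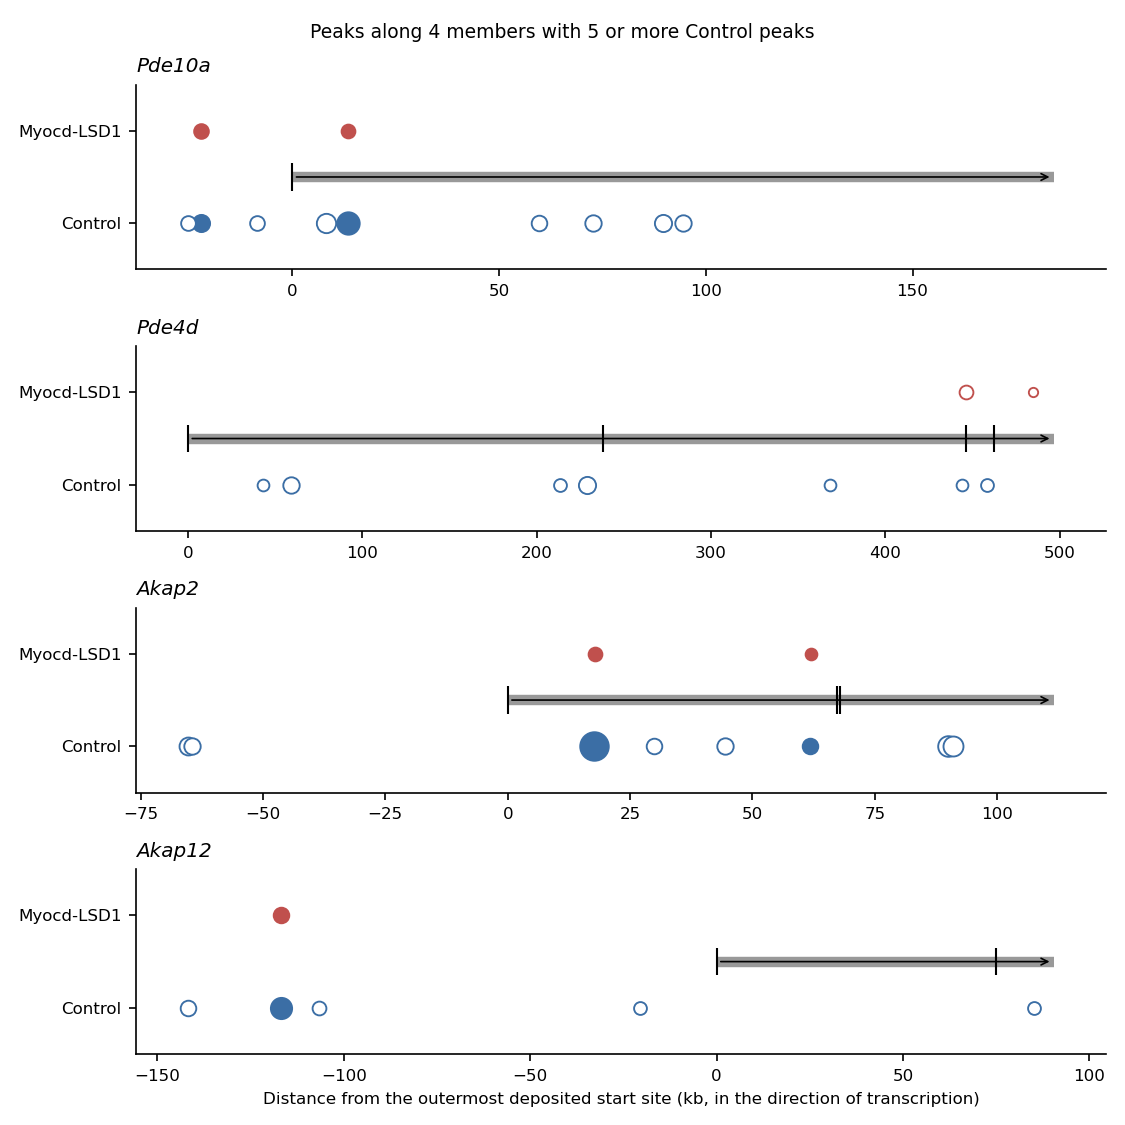
Peaks along the 4 members with 5 or more Control peaks, by distance in kb from the outermost start site among the deposited transcripts; circles are peaks of Myocd-LSD1 (upper row) and Control (lower row), larger for more fragments and filled where they overlap a peak of the other list, the grey bar is the gene and ticks are start sites. Pde10a and Akap2 each have 2 overlapping sites, Akap12 has 1 far upstream, and Pde4d has none.

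The PKA subunits had overlapping pairs at nearly every gene. All 6 genes had a Myocd-LSD1 peak, 5 had a Control peak, and in each of these 5 a pair overlapped, so that 5 of 7 Myocd-LSD1 peaks (71.4%, 29.0 to 96.3) and 5 of 8 Control peaks (62.5%, 24.5 to 91.5) had a counterpart. The interval of the Myocd-LSD1 share includes the 59.4% of all Myocd-LSD1 peaks. That of the Control share lies above the 22.0% of all Control peaks, on 8 peaks. Of these 8, 3 lay in promoters, and the interval includes the 37.8% of all Control promoter peaks that overlapped. The pairs of Prkaca and Prkacb shared 88 and 74 bp and do not reach a reciprocal overlap of 50%. The wider peak was the Control one at Prkaca (384 bp) and the Myocd-LSD1 one at Prkacb (346 bp).

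At the promoter of Prkaca, the Myocd-LSD1 peak lay 207 bp upstream of the start site (chr19:25094720-25094882, 10 fragments, fold 7.59) and the Control peak across it (chr19:25094795-25095178, 7 fragments, fold 5.36). This was 1 of 2 member pairs in which the Myocd-LSD1 peak had more fragments than the Control peak; in the other 16 pairs Control had more. At Prkacb, the second catalytic subunit, the pair lay just upstream of a start site, on 3 fragments in Myocd-LSD1 (chr2:252692122-252692467, fold 3.52) and 6 in Control (chr2:252692008-252692195, fold 5.50). A stronger Control peak of Prkacb in intron 5 of 9 (chr2:252624144-252625226, 13 fragments, fold 7.05) had no counterpart. Both catalytic subunits were therefore marked at a promoter in both lists.

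Among the regulatory subunits, the shared sites lay away from promoters. At Prkar2a the pair was intergenic, about 9 kb upstream, with 4 fragments and fold 4.31 in Myocd-LSD1 (chr8:117476938-117477198) and 20 fragments and fold 11.0 in Control (chr8:117476865-117477334). At Prkar2b it lay in intron 2 of 10, with 4 fragments and fold 4.15 in Myocd-LSD1 (chr6:51319311-51319554) and 11 and 7.36 in Control (chr6:51319403-51319667). At Prkar1b it lay in exon 4 of 9, with 6 fragments and fold 5.10 in Myocd-LSD1 (chr12:17666373-17666837) and 14 and 7.25 in Control (chr12:17666365-17666868). In all 3 pairs the Control peak had more fragments, by 2.33 to 5.0 times, beside the background ratio of 2.77. Prkar1a, the most widely expressed regulatory subunit, had 1 Myocd-LSD1 peak 14 bp downstream of its start site (chr10:97941088-97941345, 5 fragments, fold 4.66), at the promoter printed above, and no Control peak; the nearest one was 44021 bp away.

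The cGMP kinases and their substrate Mrvi1 had no shared site among their assigned peaks, 0 of 2 in Myocd-LSD1 (0 to 84.2) and 0 of 7 in Control (0 to 41.0). On so few peaks both intervals include the shares of all peaks, 59.4% and 22.0%. Prkg1, the cGMP kinase of smooth muscle, had 1 Myocd-LSD1 peak in intron 2 of 16 (chr1:250053401-250053721, 4 fragments, fold 4.34) and 2 Control peaks in intron 1 of 16, the stronger at chr1:250264941-250265287 (7 fragments, fold 6.23), 211219 bp from any Myocd-LSD1 peak. Prkg1 is a long gene with the small gene Cstf2t nearest to part of its introns, and peaks there were assigned to Cstf2t. Counted by position, Prkg1 held 4 Myocd-LSD1 and 11 Control peaks, and 2 of these sites overlapped, one in intron 3 of 16 and one in intron 4 of 16. They had 5 and 6 fragments in Myocd-LSD1 and 6 and 5 in Control. Prkg2, the membrane-bound cGMP kinase, had 1 Control peak in intron 15 of 18 (chr14:12300343-12300888, 11 fragments, fold 7.27). Mrvi1 (Irag1 in RefSeq), through which Prkg1 restrains calcium release from IP3 receptors, had 1 Myocd-LSD1 peak 1456 bp upstream of a start site (chr1:175797570-175797801, 4 fragments, fold 4.34). Its 4 Control peaks had 4 to 8 fragments, the strongest in intron 1 of 20 (chr1:175787402-175787631, fold 6.53), 9938 bp from the Myocd-LSD1 peak.

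The anchoring proteins held 8 of the 18 pairs. Of the 12 genes, 10 had a Myocd-LSD1 peak (14 peaks) and 10 a Control peak (31 peaks), 8 had both, and 7 had an overlapping pair; 8 of 14 Myocd-LSD1 peaks (57.1%, 28.9 to 82.3) and 8 of 31 Control peaks (25.8%, 11.9 to 44.6) overlapped. Both intervals include the shares of all peaks.

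At 3 anchoring genes the shared site was the promoter. Akap8, which anchors PKA in the nucleus, had a pair across its start site, with 7 fragments and fold 6.56 in Myocd-LSD1 (chr7:14339716-14340035) and 11 and 7.36 in Control (chr7:14339502-14340332). Akap11 had one across its start site, with 7 fragments and fold 6.29 in Myocd-LSD1 (chr15:60766440-60766819) and 8 and 5.94 in Control (chr15:60766285-60767087). Akap1, which anchors PKA at mitochondria, had 5 fragments and fold 4.92 in Myocd-LSD1 (chr10:76184065-76184230) and 7 and 5.25 in Control (chr10:76183909-76184130). At these promoters the fragments of the lists were closer to each other than the background ratio of 2.77, with Control to Myocd-LSD1 ratios of 1.14 to 1.57. The median ratio over all 18 member pairs, 2.0, was also below it. A pair needs a call in the Myocd-LSD1 list, and the part of this in the ratios was not tested. Akap8l, the neighbour and relative of Akap8, had a Control peak spanning its start site (chr7:14369559-14370113, 12 fragments, fold 7.78) and no Myocd-LSD1 peak.

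Akap2 and Akap12 had many Control peaks and shared sites outside promoters. Akap2 (Pakap in RefSeq) had 8 Control peaks, a number that 1.41% of genes reach. The strongest by fold of all member Control peaks lay in its intron 1 of 4 (chr5:74891647-74892109, 30 fragments, fold 11.7), where Myocd-LSD1 had 6 fragments and fold 4.92 (chr5:74891841-74892151), the widest gap in fragments of the pairs together with Prkar2a (5.0 times). A second pair in that intron had 4 fragments and fold 4.28 in Myocd-LSD1 (chr5:74936060-74936217) and 8 and 4.48 in Control (chr5:74935977-74936190). Akap12, the scaffold also called gravin, had 5 Control peaks, of which the strongest lay 117 kb upstream, in intron 26 of 27 of Mthfd1l (chr1:40699114-40699562, 16 fragments, fold 11.3). Myocd-LSD1 had a peak inside it, with 8 fragments and fold 6.72 (chr1:40699227-40699562). Since that site lies in another gene, its assignment to Akap12 rests on distance to a start site. The same holds for the 2 Control peaks of Akap5, which lay in exons of Mthfd1.

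Akap13, an anchoring protein that is also an exchange factor for RhoA, was the second gene at which the Myocd-LSD1 peak of a pair had more fragments. The pair lay 75 kb upstream, with 6 fragments and fold 6.07 in Myocd-LSD1 (chr1:137013834-137014238) and 4 and 4.26 in Control (chr1:137013810-137014186). Akap13 had 2 further Myocd-LSD1 peaks, in exon 6 of 38 (5 fragments) and intron 7 of 37 (4 fragments), and no other assigned Control peak, so that it had 3 peaks in Myocd-LSD1 and 1 in Control. At Akap9, which anchors PKA at the Golgi and centrosome, the pair lay in intron 14 of 47, with 6 fragments and fold 5.58 in Myocd-LSD1 (chr4:27282638-27283139) and 10 and 5.91 in Control (chr4:27282646-27283139). Akap6, which anchors PKA at the nuclear envelope, had 4 Control peaks, the strongest across a start site (9 fragments, fold 7.37), and 2 Myocd-LSD1 peaks elsewhere on 2 fragments each. Akap10 had 1 Myocd-LSD1 peak on 2 fragments.

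Akap17a had the strongest Myocd-LSD1 peak of the members without a counterpart, by fragments. It lay 75 bp downstream of the start site (chr12:18531485-18531705) with 17 fragments and fold 4.81 over a local background of 2.75. Of all 1019 Myocd-LSD1 peaks with more than 10 fragments outside the mitochondrial sequence, 30 had no counterpart. Within 15 kb to each side lay 4 Myocd-LSD1 peaks, with this one, and 7 Control peaks, assigned to Dhrsx, Asmt and Il3ra, the nearest of them 1683 bp away. The local background under them was 0.653 to 2.75 fragments in Myocd-LSD1, where the uniform background was 0.0633, and 3.52 to 11.2 in Control, where it was 0.175. The part of this uneven background in the missing Control call was not tested.

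The number of peaks at a gene went with its presence in both lists. Of the 8 members with 4 or more Control peaks (Pde10a, Akap2, Pde4d, Akap12, Adcy3, Akap1, Akap6 and Mrvi1) all 8 had a Myocd-LSD1 peak (100%, 63.1 to 100), against 75.5% of all such genes. Of the 21 with 2 or 3 Control peaks, 10 did (47.6%, 25.7 to 70.2; all genes 53.6%), and of the 16 with 1 Control peak 6 did (37.5%, 15.2 to 64.6; all genes 36.1%). Each of the 3 intervals includes the share of all genes.

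Other genes of cyclic nucleotide signalling (receptors, G proteins, channels, effectors and transcription factors, 70 genes) had peaks at similar rates. Of these, 25 had a Myocd-LSD1 peak and 51 a Control peak, with 24 in both (47.1% of the Control genes, 32.9 to 61.5, beside 46.2% of all genes) and Hcn2 in Myocd-LSD1 alone. Of their 109 Control peaks 19 overlapped (17.4%, 10.8 to 25.9; all peaks 22.0%). Crem, a transcription factor of the CREB family that cAMP regulates, had the highest fold of the list in both groups, 13.6 on 17 fragments in Myocd-LSD1 and 28.0 on 74 in Control. Cnga4, a subunit of cyclic nucleotide-gated channels, had a promoter peak in both (17 fragments in Myocd-LSD1 and 16 in Control), as did Gnai2, an inhibitory G protein of adenylyl cyclase (13 in Myocd-LSD1 and 15 in Control). Npr1, the receptor guanylyl cyclase for atrial natriuretic peptide, had an overlapping promoter pair with 6 fragments in Myocd-LSD1 and 84 in Control. Of the genes with Control peaks alone, those of the highest fold were Crtc1, a CREB coactivator (fold 11.5, 75 fragments), the channel subunit Cngb1 (fold 11.2), the adenosine receptor Adora2a (fold 11.0) and the cAMP-binding membrane protein Popdc3 (fold 10.5).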

How the data were processed

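HA-TET2 CUT&Tag was measured in 1 Myocd-LSD1 and 2 Control samples, which the cell line label puts into groups. The tools were Bowtie2, deepTools, MACS2 and ChIPseeker, on the rn6 build, per the submitters' processing notes. Their versions and settings, and any pooling of the Control reads, are not given in the sources that were used. Each group has 1 deposited list of narrow peaks. The deposited fold enrichment is a ratio, the deposited p- and q-values are on the −log10 scale, and a deposited score, a multiple of the −log10 q-value truncated to whole numbers, was not used. Peak starts are given counted from 1. Gene assignments and annotation classes are those of the authors, with promoters reaching 3 kb up- and downstream of a start site.

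The members and gene lists were chosen with earlier results of these data known. Overlap meant at least 1 shared bp (Python 3.11.15, pandas 2.3.3, SciPy 1.17.1). Fragments k and local background λ were recovered from the fold as (k + 1)/(λ + 1) and the p-value as a Poisson chance, a step chosen after seeing the data. The recovery was tested on simulated data, and overlaps were checked against bedtools 2.31.1. Amplified fragments need not be independent molecules. Peak numbers compare lists of unequal depth and sample number. All 51 members matched RefSeq by symbol or synonym; another 19 genes of the rule in RefSeq had no assigned peak. Every member could be named; full values were given for overlapping peaks, for the strongest peak of each gene among the 15 strongest of its list, and for cGMP cyclase, kinase and PKA genes. Of the other pathway genes, those in both lists and 4 more by fold could be named. Other peaks were picked after their values were seen. The alternatives tried were a reciprocal overlap, a gap allowance, stricter q-values, an equal list length, promoter and other peaks apart, peaks in or near the gene only, and leaving out gene groups or weak peaks.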

Additional observations from a re-analysis of the deposited data

How the results depend on the processing

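The share of Control member peaks that overlap a Myocd-LSD1 peak (16.7%) moved by less than its counting interval under 9 of 11 alternatives. It was 30.6% with the Control list shortened to the length of the Myocd-LSD1 list (all peaks 38.7%) and 33.3% with promoter peaks only. The share of genes in both lists (53.3%) was 32.5% with a −log10 q of at least 3 in both lists (all genes 33.7%). The ratio of Myocd-LSD1 to Control peaks (0.389) was 0.247 with that threshold (all peaks 0.262), 1.17 with the shortened list (all peaks 1, by construction), 0.889 with promoter peaks only (all peaks 0.548) and, in an alternative chosen after seeing the data, 0.262 with peaks of more than 3 fragments only (all peaks 0.279). The share of Myocd-LSD1 peaks that overlap a Control peak (42.9%) was 60.7% and 68.4% with a −log10 q of at least 2 and of at least 3 (all peaks 71.4% and 76.7%), 26.2% with the shortened list (all peaks 39.1%) and 63.0% with more than 3 fragments (all peaks 75.2%). In these settings, with a reciprocal overlap and with non-promoter peaks only, its interval included the share of all peaks. With the gap allowance, promoter peaks only, peaks in or near the gene only, or gene groups left out, it lay below. The stricter q-values, the fragment minimum and the shortened list take away weak peaks, the last from Control alone, and the promoter setting takes away peaks elsewhere; other causes were not tested. No paired analysis was possible because each group has 1 peak list, and for the same reason no replicate could be left out. The lower Myocd-LSD1 depth limits what a missing peak there shows.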

Other observations

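Some peaks inside member genes were assigned by distance to other genes. There were 7 of these in Myocd-LSD1 and 38 in Control; with them, 21 of 49 Myocd-LSD1 peaks (42.9%, 28.8 to 57.8) and 21 of 146 Control peaks (14.4%, 9.13 to 21.1) overlapped a peak of the other list, against 59.4% and 22.0% of all peaks. Counted so, the intervals of both lists lie below the share of all peaks, while by assigned gene the Control interval included it. The added peaks all lay in introns or exons, as did 24 of the 49 and 100 of the 146. Of all intron peaks, 51.7% in Myocd-LSD1 and 14.4% in Control overlapped, and each interval includes its share. Of all exon peaks, 55.9% and 8.52% did. Adcy9 held 5 such Control peaks in introns and exons, the strongest in exon 11 of 11 (chr10:11511048-11512086, 20 fragments, fold 7.84), and no Myocd-LSD1 peak. Adcy5 held 1 such Myocd-LSD1 peak and 3 Control peaks, and the Myocd-LSD1 peak (chr11:68797771-68797970, 5 fragments) overlapped a Control peak of 5 fragments in intron 1 of 20, so that Adcy5 had a shared site by position that it lacked by assignment. Akap7, which had no assigned peak, held a Control peak of 20 fragments in intron 8 of 8 (chr1:21239079-21239580, fold 11.0). These genes were picked after their values were seen.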
